A study of Mus musculus with 17 samples.

Results

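Chemokines are small secreted proteins that form gradients and guide leukocytes into tissue through G protein-coupled receptors on the migrating cell. The 10 genes described here are the inflammatory chemokines Ccl2, Ccl4, Ccl5, Ccl6, Ccl9, Cxcl1, Cxcl9, Cxcl10, Cxcl12 and Cxcl16, chosen by name and matched to the gene symbols of the deposited counts. They are 10 of 24352 genes in all, of which 9 were listed under the high-fat diet (HFD) and 10 under the Western diet (WD); Ccl4 was not listed under HFD. In a fatty liver, such ligands are made by Kupffer cells, infiltrating macrophages, sinusoidal endothelium, stellate cells and stressed hepatocytes, and their receptors sit mainly on monocytes, T cells, NK cells and neutrophils.

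RNA-seq was performed on livers and tumors of male mice of the C57BL6 background. N-LKO mice carry loxP-flanked alleles of NgBR (gene Nus1), a subunit of the enzyme that makes dolichol, together with a Cre driven by the albumin promoter, so the deletion is aimed at hepatocytes and not at the leukocytes or stromal cells that also make chemokines. WT and N-LKO livers were taken after 16 weeks of HFD (4 and 4 libraries) and after 16 weeks of WD, a diet high in fat and cholesterol (3 and 3), together with 3 N-LKO tumors under WD. The age at the start of the diet is not given in the labels, while the paper's methods give the time on standard chow before the switch. The floxed alleles of the WT mice are not given in the labels, and neither is whether tumors and N-LKO livers came from the same mice.

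Libraries of the HFD livers held 9096110 to 12215784 counts, and those of the WD groups 15494731 to 20200618. Nus1 mRNA was 35.1 ± 3.99 CPM (counts scaled to library size, SD, n = 4) in HFD-fed N-LKO and 88.2 ± 5.90 in HFD-fed WT livers. Under WD it was 94.5 ± 5.57 in WT livers, 46.7 ± 4.75 in N-LKO livers and 35.8 ± 7.59 in tumors (n = 3 each), and no knockout or tumor library reached a WT library of its diet. The hepatocyte markers, which include albumin, summed to 32000 to 74900 CPM over the 17 libraries, and none of the 6 was at 0 throughout a group. One WD library, WT replicate 2, had the lowest value of all 9 WD libraries for 7 chemokines and the highest for Cxcl1 and Cxcl12, and the log2 fold changes of the chemokines against WT livers under WD are given with and without it.

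The chemokine genes lie in a few clusters of the genome (GRCm38, GENCODE M21 annotation). Ccl9 (chr11:83572919-83578636) and Ccl6 (chr11:83587882-83593087) are neighbors on the minus strand, between Ccl5 (chr11:83525778-83530518, minus strand) and Ccl4 (chr11:83662584-83664683, plus strand). Ccl2 (chr11:82035571-82037453, plus strand) and Cxcl16 (chr11:70453983-70459984, minus strand) are elsewhere on the same chromosome. Cxcl9 (chr5:92321347-92328079, minus strand) and Cxcl10 (chr5:92346638-92348889, minus strand) are also neighbors, with Cxcl1 (chr5:90891241-90893115, plus strand) on the same chromosome. Cxcl12 is on another one (chr6:117168535-117181367, plus strand).

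Promoter windows of 300 bases, from 250 before to 50 after the gene start, were matched in RefSeq (GRCm38.p6) for 6 of the 10 genes, and 4 are shown because they belong to the pairs of neighbors whose transcripts are compared here. Capitals mark matches to motifs of the inflammatory factors that act on chemokine genes, the κB motif of NF-κB and the core of the interferon-stimulated response element (ISRE, TTTCNNTTT), both searched on both strands, and the letters TATAAA of the TATA box on the gene's strand.
Cxcl9 promoter, minus strand of chr5:92328030-92328329: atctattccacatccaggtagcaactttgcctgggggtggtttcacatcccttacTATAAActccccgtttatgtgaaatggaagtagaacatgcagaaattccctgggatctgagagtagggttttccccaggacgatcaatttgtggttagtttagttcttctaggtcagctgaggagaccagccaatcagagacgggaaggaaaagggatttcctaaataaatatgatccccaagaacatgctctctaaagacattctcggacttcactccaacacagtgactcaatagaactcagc
Cxcl10 promoter, minus strand of chr5:92348840-92349139: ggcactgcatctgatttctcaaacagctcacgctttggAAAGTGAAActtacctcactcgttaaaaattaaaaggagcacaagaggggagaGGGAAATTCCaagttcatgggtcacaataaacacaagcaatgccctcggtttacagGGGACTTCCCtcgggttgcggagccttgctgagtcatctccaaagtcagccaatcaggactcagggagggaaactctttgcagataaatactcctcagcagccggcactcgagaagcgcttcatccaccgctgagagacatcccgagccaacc
Ccl9 promoter, minus strand of chr11:83578587-83578886: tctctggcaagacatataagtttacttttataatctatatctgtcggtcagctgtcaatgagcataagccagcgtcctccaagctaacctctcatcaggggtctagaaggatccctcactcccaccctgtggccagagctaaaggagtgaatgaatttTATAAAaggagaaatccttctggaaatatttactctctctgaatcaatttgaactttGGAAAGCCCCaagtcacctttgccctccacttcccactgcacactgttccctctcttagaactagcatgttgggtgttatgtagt
Ccl6 promoter, minus strand of chr11:83593038-83593337: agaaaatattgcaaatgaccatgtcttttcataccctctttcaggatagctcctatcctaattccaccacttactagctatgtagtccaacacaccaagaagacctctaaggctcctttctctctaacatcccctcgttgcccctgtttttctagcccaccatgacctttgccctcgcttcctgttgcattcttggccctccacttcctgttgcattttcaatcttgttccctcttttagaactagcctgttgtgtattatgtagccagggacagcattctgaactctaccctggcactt

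The Cxcl10 window held 1 ISRE and 2 κB matches, and the Cxcl9 window held neither and had 1 TATAAA match, at positions -195 to -190 from the gene start. The Ccl9 window held 1 κB match (-35 to -26) and 1 TATAAA match (-92 to -87), and the Ccl6 window held no match. Over all 32851 promoter windows, 10.6% held an ISRE core, 4.51% a κB and 8.32% a TATAAA match. A match describes the letters in the window and is not a measured binding site. The windows of Ccl6 and Ccl9 also resembled each other near their starts, with 38 of 50 bases identical in the best ungapped stretch (76.0%), and the best stretch of any other pair among the 6 windows had 27 identical bases.

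Per kilobase of exon, Cxcl12 was the most abundant of the 10 transcripts in every group. This ligand of Cxcr4 retains leukocytes and progenitors in tissue and is made by stromal and endothelial cells without an inflammatory trigger. Its mean level per kilobase was 37.0 ± 4.22 CPM in WT and 34.4 ± 5.37 in N-LKO livers under HFD (n = 4 each), and under WD it was 39.0 ± 10.4 in WT livers, 35.6 ± 3.78 in N-LKO livers and 27.5 ± 4.44 in tumors (n = 3 each). Its range stood apart from that of the next gene in all 4 liver groups and overlapped that of Ccl9 in the tumors.

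The order below Cxcl12 was not the same in all groups. In WT livers under WD, Ccl6 came second at 16.9 ± 5.87 CPM per kilobase and Ccl9 next at 10.5 ± 3.91, with overlapping ranges. In N-LKO livers under WD the same order was seen with ranges apart, at 20.3 ± 3.62 for Ccl6 and 10.3 ± 1.34 for Ccl9. In tumors Ccl9 came second at 20.2 ± 5.91 and Ccl6 next at 12.8 ± 5.46, with overlapping ranges. Ccl2 and Ccl5 were near the lower end, with mean levels per kilobase between 0.428 and 3.19 CPM over the groups, and Ccl4 was last in all 3 WD groups, at 0.845 to 0.907.

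**Figure D1:**
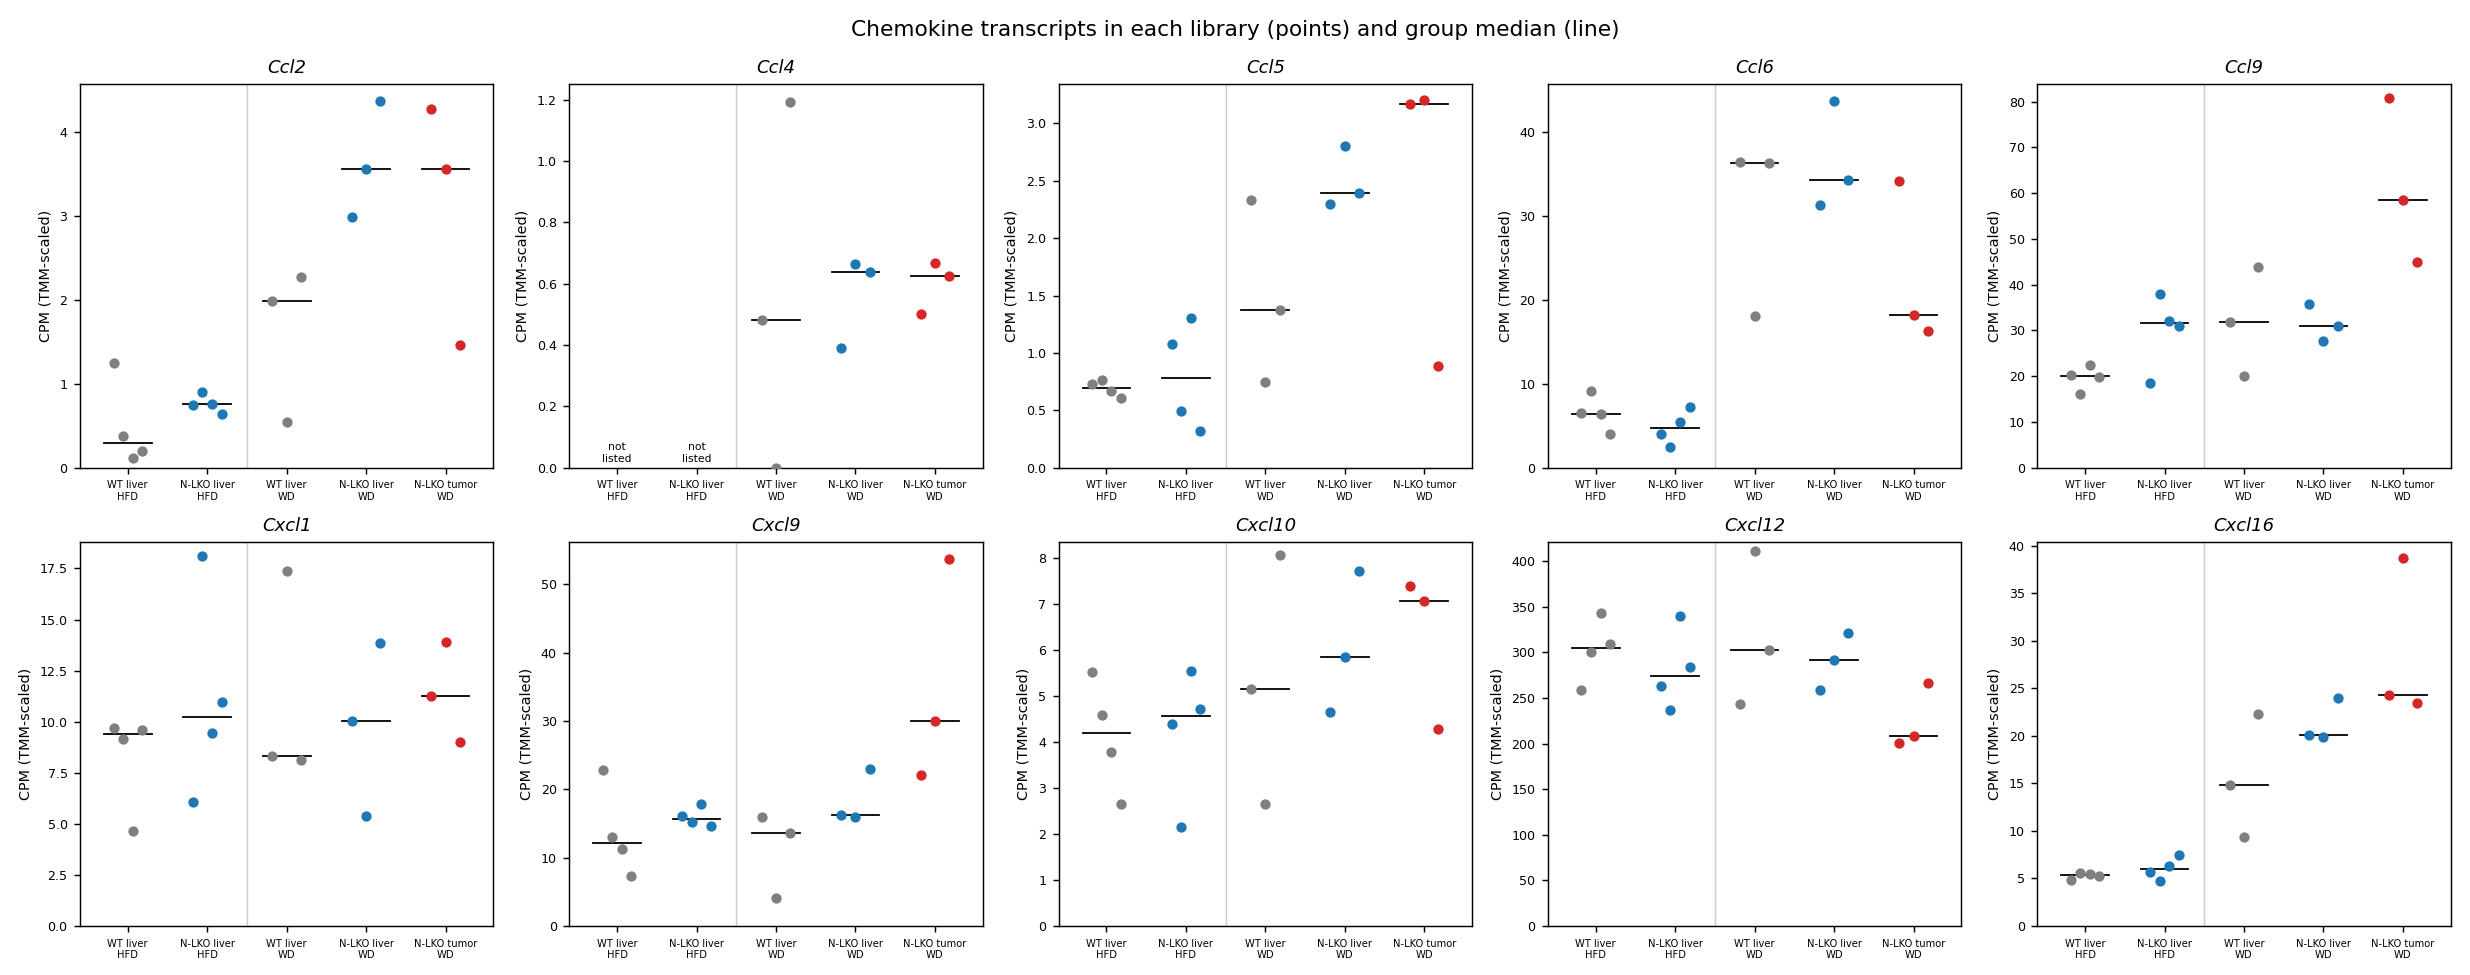
The level of each chemokine in CPM (linear axis from 0, 1 panel per gene) is plotted for each library by group, with a line at the group median. The 3 tumors lie above all WT livers under WD for Ccl9 (45.1 to 80.7 against 20.1 to 43.9 CPM), Cxcl9 and Cxcl16, and WT replicate 2 under WD is low for several genes.

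The first comparison asked whether loss of hepatic NgBR changed these transcripts under HFD. None of the 7 chemokines tested passed the threshold of an adjusted p under 0.05 (edgeR quasi-likelihood test, Benjamini-Hochberg over 13460 genes), where 4.84% of all genes did. At an unadjusted p under 0.05 it was 1 of 7, against 22.7% of all genes. Ccl2 and Ccl5 were too low for the test, with 1 to 13 counts per library. The 7 log2 fold changes had a median of 0.20, beside -0.01 over all genes tested. In bulk tissue, fewer cells of a type and less RNA per cell cannot be told apart, here or in the comparisons that follow.

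Ccl9, a chemokine of rodents that attracts myeloid cells through Ccr1, had the lowest p of the group under HFD. It was at 20.3, 16.1, 22.4 and 19.9 CPM in the 4 WT livers and at 18.6, 38.0, 32.1 and 30.96 CPM in the 4 N-LKO livers. Thus 3 of the 4 N-LKO livers were above every WT liver, and N-LKO replicate 1 was within the WT range. N-LKO livers differed from WT by a log2 fold change of 0.61 ± 0.19 (SE, 95% interval 0.20 to 1.02, edgeR adjusted p = 0.0836). It passed the threshold with DESeq2 (adjusted p = 0.0355), which called 7.43% of all genes, and in edgeR without N-LKO replicate 1 (0.78, adjusted p = 0.0299), and in no other of its 16 alternatives, over which the adjusted p ran from 0.0299 to 0.207.

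Ccl6, the neighbor of Ccl9 and another rodent ligand of Ccr1, was at 6.56, 9.18, 6.34 and 3.97 CPM in WT and at 4.06, 2.47, 5.44 and 7.28 CPM in N-LKO livers fed the HFD. The groups overlapped, and the log2 fold change of -0.44 ± 0.32 did not pass the test (edgeR adjusted p = 0.434). Its 95% interval of -1.13 to 0.25 left room for change in either direction.

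The remaining chemokines also overlapped between genotypes under HFD. Cxcl1, which draws neutrophils through Cxcr2, differed by 0.43 ± 0.31 on the log2 scale (95% interval -0.24 to 1.10). The interferon-induced Cxcr3 ligands Cxcl9 and Cxcl10, which attract activated T and NK cells, differed by 0.23 ± 0.26 (-0.34 to 0.79) and 0.01 ± 0.30 (-0.64 to 0.66). Cxcl16, a membrane-bound ligand of Cxcr6 that also takes up oxidized lipid, differed by 0.20 ± 0.17 (-0.18 to 0.57), and Cxcl12 by -0.11 ± 0.12 (-0.37 to 0.16). The edgeR adjusted p of these 5 genes ran from 0.437 to 0.990.

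Cxcl9 varied more among WT than among N-LKO livers under HFD. It was at 22.8, 13, 11.2 and 7.33 CPM in WT livers and at 16.1, 15.3, 17.8 and 14.6 CPM in N-LKO livers. The N-LKO values lay inside the WT range, and the difference in spread was not tested. Ccl2, the main attractant of monocytes through Ccr2, was at 1.25, 0.382, 0.111 and 0.204 CPM in WT and at 0.746, 0.907, 0.762 and 0.640 CPM in N-LKO livers, so that WT replicate 1 was above the N-LKO livers and the other 3 WT livers were below them. Ccl5, which is made by T and NK cells, was at 0.693 ± 0.0679 CPM in WT and 0.799 ± 0.468 in N-LKO livers (n = 4 each).

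Of the other genes of the pathway, none passed the edgeR test under HFD among 4 other chemokine ligands, 6 chemokine receptors, 21 genes of inducing signals (cytokines and the NF-κB, interferon and Toll-like receptor pathways) and 6 proteases that trim or shed chemokines. The receptor with the lowest p was Cx3cr1, the fractalkine receptor of patrolling monocytes and resident macrophages, at 3.33 ± 1.05 CPM in N-LKO and 1.45 ± 0.553 in WT livers (n = 4, log2 fold change 1.17 ± 0.32, edgeR adjusted p = 0.0583). Its groups did not overlap, as was so for 14.8% of all genes tested. DESeq2 called Cx3cr1 (adjusted p = 0.0209) and the protease Mmp2 (1.37, adjusted p = 0.0457) and no other gene of these 4 lists. Beside these values, Kupffer cell markers summed to 53.0 to 109 CPM in N-LKO and 108 to 166 in WT livers, and 4 of 6 fell (Clec4f, Marco, Timd4 and Vsig4). Monocyte and macrophage markers summed to 41.9 to 75.6 and 52.6 to 76.7 CPM, and 0 of 6 tested passed. Cholangiocyte markers summed to 54.5 to 99.6 CPM in N-LKO and 20.5 to 38.4 in WT livers, and 1 of 2 tested rose (Spp1). Spp1 alone averaged 62.4 CPM in N-LKO and 21.3 in WT livers. Endothelial cell markers summed to 61.8 to 84.9 CPM in N-LKO and 74.5 to 98.6 in WT livers, and 1 of 6 fell (Stab2). Stellate cell and fibroblast markers summed to 202 to 288 and 140 to 250 CPM, and 0 of 7 passed. At an unadjusted p under 0.05 in edgeR it was 6 of 7, not all in the same direction, against 22.7% of all genes. DESeq2 called 2 of these 7 (Dcn and Pdgfrb, both higher). Among the Kupffer and endothelial cell markers it also called Cd5l and Clec4g as lower and Vwf as higher. It called 7.43% of all genes. Of all genes, 2.56% passed in edgeR as higher and 2.29% as lower. None of the marker genes listed was at 0 in every library of a group. The part of cell content in the chemokine values was not tested.

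The second comparison asked the same under WD, and again none of the 10 chemokines passed the test. Here 0.0% of 17829 genes passed in edgeR, while 12.4% had an unadjusted p under 0.05 and DESeq2 called 0.597% of the genes it adjusted, none of them among the 10. Nus1 itself, with a log2 fold change of -1.02 ± 0.16, did not pass in edgeR (adjusted p = 0.151). It passed in 2 of 18 alternatives, with DESeq2 (adjusted p = 2.47e-05) and in edgeR with only the 2 liver groups in the fit (0.0307). The median of the 10 log2 fold changes was 0.23, beside 0.01 over all genes. Ccl2 and, by a very narrow margin, Cxcl9 were higher in every N-LKO than in every WT liver, 2 of 10, where 14.3% of all genes were higher without overlap.

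Ccl2 was at 1.99, 0.543 and 2.27 CPM in WT livers and at 2.99, 3.56 and 4.36 CPM in N-LKO livers under WD. All 3 N-LKO values were above the WT values, and the lowest of the 6 was WT replicate 2. This gave a log2 fold change of 1.17 ± 0.50 (95% interval 0.06 to 2.28), with an unadjusted p = 0.04 from edgeR and an adjusted p = 0.389. Without WT replicate 2 it was 0.76 (adjusted p = 0.896).

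Cxcl9 was at 16.0, 4.07 and 13.5 CPM in WT livers and at 16.3, 16.0 and 23.0 CPM in N-LKO livers under WD. The groups were nearly tied at their edge, at 15.99 CPM in WT replicate 1 and 16.0 in N-LKO replicate 2, and WT replicate 2 was again the lowest. The log2 fold change of 0.71 ± 0.45 (95% interval -0.29 to 1.72) had an edgeR adjusted p = 0.514, and it was 0.31 without that library. Ccl5 was at 2.33, 0.746 and 1.37 CPM in WT and at 2.30, 2.80 and 2.39 CPM in N-LKO livers, which overlapped (0.75 ± 0.50, edgeR adjusted p = 0.531, and 0.43 without WT replicate 2).

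Ccl9 did not show under WD the difference seen between most HFD livers. It was at 31.9, 20.1 and 43.9 CPM in WT and at 35.7, 27.6 and 30.95 CPM in N-LKO livers, with all N-LKO values inside the WT range. The log2 fold change was -0.03 ± 0.28 (95% interval -0.65 to 0.60), and -0.27 without WT replicate 2. Cxcl16 was at 14.8, 9.36 and 22.3 CPM in WT and at 20.1, 19.9 and 24.0 CPM in N-LKO livers (0.46 ± 0.29, edgeR adjusted p = 0.520, and 0.19 without that library). The other 5 chemokines, Ccl4, Ccl6, Cxcl1, Cxcl10 and Cxcl12, had log2 fold changes between -0.21 and 0.26, or between -0.58 and 0.24 without that library. Ccl4, an attractant of monocytes and T cells, had 0 counts in WT replicate 2, which allows up to 0.203 CPM, and was at 0.481 and 1.19 CPM in the other 2 WT livers.

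A model with a genotype by diet term, over all 14 livers, tested whether the effect of the knockout depended on the diet, and 0 of the 9 chemokines listed under both diets passed, where 1.62% of 15850 genes did. None had an unadjusted p under 0.05, against 20.0% of all genes. DESeq2 called 8.07% of the genes it adjusted and none of the 9. The lowest p was that of Ccl9, whose difference of log2 fold changes (WD minus HFD) was -0.62 ± 0.34 (95% interval -1.34 to 0.11, edgeR adjusted p = 0.326). Ccl6 followed with 0.72 ± 0.44 (-0.22 to 1.67, adjusted p = 0.383). Without WT replicate 2 under WD the 2 values were -0.88 (adjusted p = 0.147) and 0.44 (0.604). The intervals include both no difference and differences above 1 log2 unit, so the number of livers does not tell these apart.

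Between tumors and WT livers under WD, Cxcl9 and Ccl9 passed the test, 2 of 10 chemokines and both higher in the tumors. Of all 17829 genes, 14.9% passed and 8.08% passed in the higher direction, and 32.5% had an unadjusted p under 0.05, as had 4 of the 10. The median of the 10 log2 fold changes was 0.47, beside 0.04 over all genes. Cxcl9, Ccl9 and Cxcl16 were higher in every tumor than in every WT liver, where 17.7% of all genes were higher without overlap. Tumors differ from WT livers in genotype and in tissue, and this comparison cannot tell the 2 apart.

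Cxcl9 was at 22.1, 30.02 and 53.7 CPM in the tumors, beside 16.0, 4.07 and 13.5 CPM in WT livers. All tumors were above all WT livers, with tumor replicate 3 the highest of the 9 WD libraries. Its log2 fold change was 1.65 ± 0.45 (95% interval 0.64 to 2.66, edgeR adjusted p = 0.0381). It was 1.25 without WT replicate 2 (adjusted p = 0.0809) and 1.21 without tumor replicate 3 (0.0985). The direction was the same in all 18 alternatives and 9 of them passed, with adjusted p from 0.00267 to 0.0985.

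Ccl9 was at 80.7, 58.5 and 45.1 CPM in the tumors, beside 31.9, 20.1 and 43.9 CPM in WT livers. The lowest tumor exceeded the highest WT liver by about 1 CPM. The log2 fold change was 0.94 ± 0.28 (95% interval 0.32 to 1.57, edgeR adjusted p = 0.0494), just under the threshold. It passed in 7 of 18 alternatives, all higher in tumors, with adjusted p from 0.0142 to 0.142. It was 0.69 without WT replicate 2 (adjusted p = 0.142) and also 0.69 without tumor replicate 1 (0.108).

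Cxcl16 was at 24.3, 38.7 and 23.4 CPM in the tumors, above the 9.36 to 22.3 CPM of WT livers. Its log2 fold change of 0.89 ± 0.30 (95% interval 0.24 to 1.55) missed the threshold in edgeR (adjusted p = 0.0676) and passed in 2 of 18 alternatives, with DESeq2 (0.0305, 20.5% of all genes) and without WT replicate 3 (0.0368). Without WT replicate 2 it was 0.63 (0.188), and over all alternatives the adjusted p went up to 0.217. Cxcl16 overlaps Zmynd15 on the opposite strand, and its estimated counts were not whole in any WD library, so part of its reads was divided between features. Cxcl12 was at 200.5, 207.8 and 266.7 CPM in the tumors and at 243.3, 410.7 and 302.4 CPM in WT livers. Every tumor was below the WT mean, and the log2 fold change of -0.50 ± 0.21 (95% interval -0.96 to -0.04) had an edgeR adjusted p = 0.124. Without WT replicate 2, the highest library for Cxcl12, it was -0.28 (adjusted p = 0.389).

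The other chemokines did not pass between tumors and WT livers. Ccl2 was at 4.27, 3.56 and 1.46 CPM in the tumors and differed by 0.95 ± 0.50 (95% interval -0.16 to 2.06), or by 0.54 without WT replicate 2. Ccl5, at 3.17, 3.20 and 0.886 CPM, differed by 0.71 ± 0.50 (-0.41 to 1.83), or by 0.39 without it. Tumor replicate 3, the highest library for Cxcl9, was the lowest tumor for both of these genes and for Cxcl10. Ccl4, Ccl6, Cxcl1 and Cxcl10 had log2 fold changes from -0.40 to 0.24, or from -0.67 to 0.47 without that WT library.

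**Figure D2:**
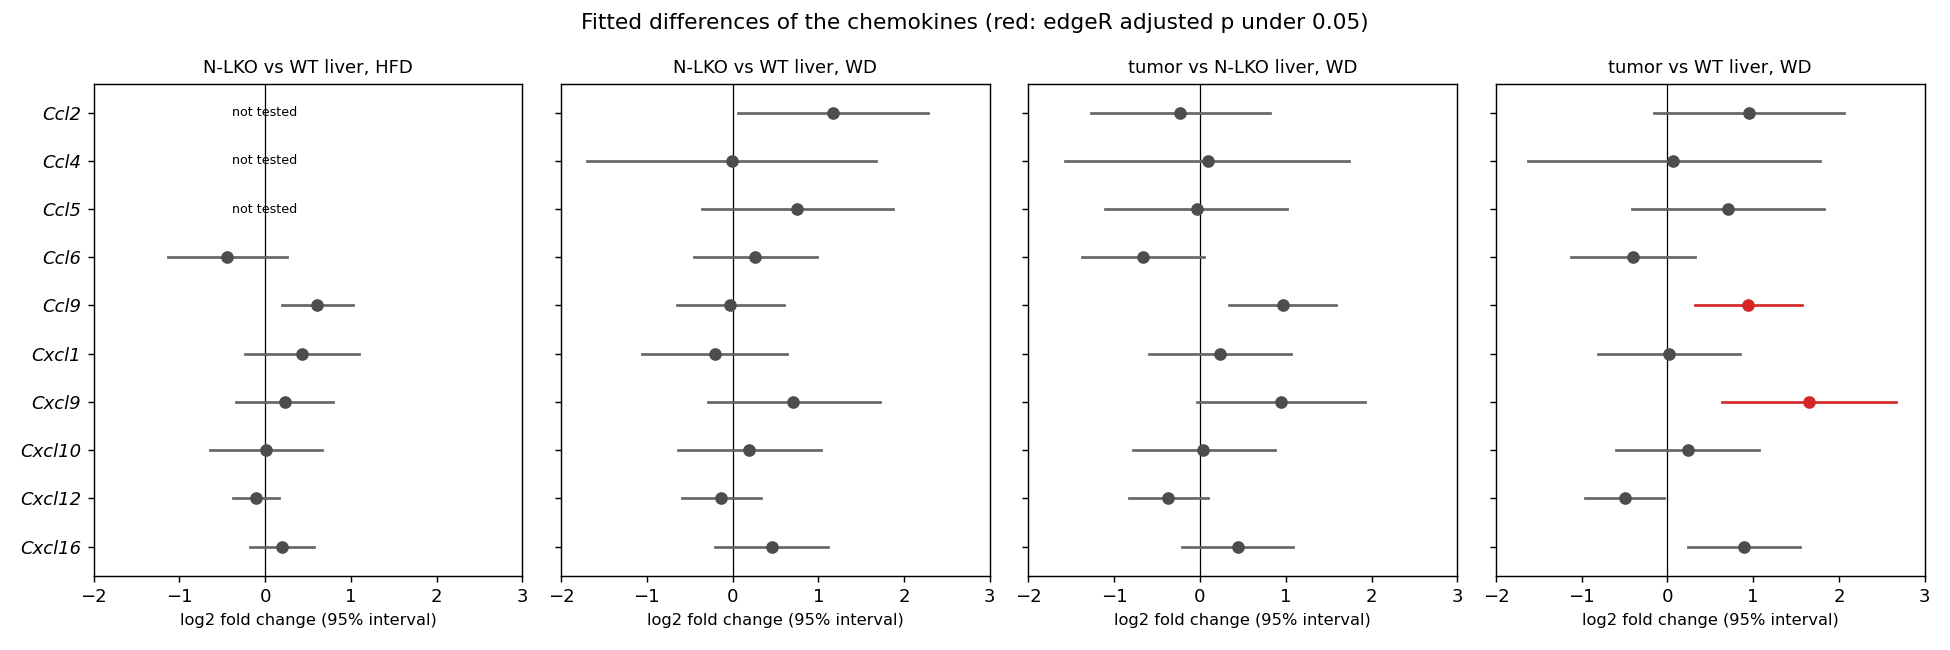
Each panel is 1 comparison, with the log2 fold change of each chemokine (points) and its 95% interval (lines); red marks an edgeR adjusted p under 0.05. Only Cxcl9 (1.65) and Ccl9 (0.94) in tumor versus WT liver are red, and most other intervals include 0.

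Tumors and N-LKO livers share the genotype, and between them 0 of 10 chemokines passed in edgeR, where 0.499% of 17829 genes did. At an unadjusted p under 0.05 it was 1 of 10, against 18.3% of all genes. Ccl9 had the lowest p. It was at 80.7, 58.5 and 45.1 CPM in tumors and at 35.7, 27.6 and 30.95 CPM in N-LKO livers, with no overlap, while 11.5% of all genes were higher in tumors without overlap. Its log2 fold change was 0.97 ± 0.28 (95% interval 0.34 to 1.59, edgeR adjusted p = 0.125, and 0.0291 with DESeq2, which called 5.74% of all genes). This comparison and the one with WT livers share the 3 tumors.

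Ccl6 was at 34.2, 18.2 and 16.3 CPM in tumors and at 31.2, 43.7 and 34.2 CPM in N-LKO livers. Tumor replicate 1 was within the range of the N-LKO livers and the other 2 tumors were below it. The log2 fold change of -0.67 ± 0.32 (95% interval -1.38 to 0.05) had an edgeR adjusted p = 0.308, and without tumor replicate 1 it was -1.07 (adjusted p = 0.0436). Cxcl9 differed by 0.94 ± 0.44 (95% interval -0.04 to 1.92, adjusted p = 0.296), with 1 N-LKO liver above the lowest tumor. The remaining 7 chemokines had log2 fold changes from -0.37 (Cxcl12) to 0.44 (Cxcl16).

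Since neighboring genes are read in the same library, their ratio does not depend on the library's scaling. The ratios were chosen after the values were seen and carry no test. The count of Ccl9 divided by that of Ccl6 was 0.876, 1.11 and 1.21 in WT livers and 1.14, 0.633 and 0.905 in N-LKO livers under WD, and 2.36, 3.21 and 2.76 in tumors. All 3 tumors were above all 6 WD livers. Under HFD it was 3.10, 1.75, 3.53 and 5.0 in WT and 4.57, 15.4, 5.90 and 4.25 in N-LKO livers, which overlapped. Ccl9 was the more abundant of the pair in all 3 tumors and in all 8 HFD livers.

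The count of Cxcl9 divided by that of Cxcl10 was 3.11, 1.54 and 1.68 in WT livers, 3.49, 2.74 and 2.98 in N-LKO livers and 2.99, 4.25 and 12.6 in tumors under WD. The 3 groups overlapped, and the ratio of 12.6 belonged to tumor replicate 3. In that tumor Cxcl9 was the highest and Cxcl10, at 4.28 CPM, the lowest of the 3 tumors. Under HFD the ratio was 2.77 to 4.13 in WT and 3.08 to 7.12 in N-LKO livers.

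**Figure D3:**
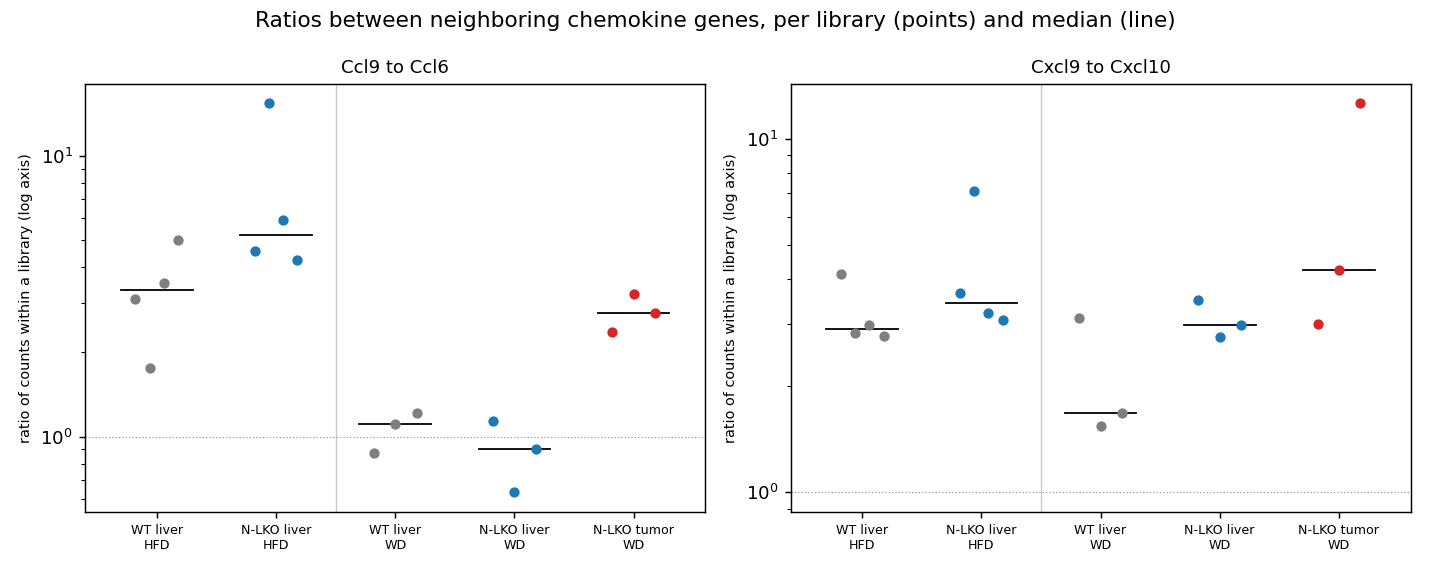
The ratio of the counts of 2 neighboring chemokine genes is plotted for each library on a log axis, with a line at the group median and a dotted line at equal counts. For Ccl9 to Ccl6 the tumors (2.36 to 3.21) lie above the WD livers (0.633 to 1.21), while for Cxcl9 to Cxcl10 the groups overlap.

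Receptors and other ligands were compared in the same fit. Between tumors and WT livers, 4 of 17 chemokine receptors tested rose and none fell, where 8.08% of all genes passed as higher and 6.8% as lower. Cxcr4, the receptor of Cxcl12, was at 12.3 ± 6.07 CPM in tumors and 2.63 ± 1.46 in WT livers (n = 3 each, log2 fold change 2.22 ± 0.47, edgeR adjusted p = 0.0172), and it passed in 17 of 18 alternatives. Ackr3, the scavenging receptor of Cxcl12, rose by 1.89 ± 0.55 (adjusted p = 0.0468), just under the threshold, and it passed in 6 of 18 alternatives. It was 1.19 without tumor replicate 2 (adjusted p = 0.156) and 1.77 with the replicate number as a block (0.100).

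Ccr1, the receptor of Ccl6 and Ccl9, was at 4.58 ± 4.07 CPM in tumors and 0.794 ± 0.283 in WT livers (n = 3 each). The lowest tumor, at 1.15 CPM, was just above the highest WT liver at 1.01, and the log2 fold change was 2.52 ± 0.66 (edgeR adjusted p = 0.0325, passing in 9 of 18 alternatives). Cx3cr1 rose by 1.92 ± 0.48 (adjusted p = 0.0273).

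Among 15 other chemokine ligands tested, 2 rose and 1 fell, where 8.08% of all genes passed as higher and 6.8% as lower. Cx3cl1 (fractalkine), the ligand of Cx3cr1, was at 11.4 ± 7.45 CPM in tumors and 1.72 ± 0.511 in WT livers (n = 3 each, log2 fold change 2.72 ± 0.46, edgeR adjusted p = 0.00957). It passed in 18 of 18 alternatives, with adjusted p from 3.66e-07 to 0.0432. Cxcl14, made mainly by epithelial cells, rose by 1.85 ± 0.49 (adjusted p = 0.0339). Ccl24, an attractant of eosinophils, was at 0.422 ± 0.304 CPM in tumors and 1.62 ± 0.470 in WT livers (-1.93 ± 0.49, adjusted p = 0.0302). Its counts were low, at 3 to 15 per tumor library and 18 to 36 per WT library.

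Of 22 genes of inducing signals tested, 2 rose and 2 fell between tumors and WT livers. Relb, a subunit of the noncanonical NF-κB complex, rose by 1.23 ± 0.29 (edgeR adjusted p = 0.0237), and Ifngr1, a chain of the receptor for interferon gamma that induces Cxcl9, rose by 0.75 ± 0.19 (0.0298). Rela, a subunit of canonical NF-κB, fell by 0.60 ± 0.14 on the log2 scale (0.0221), and Myd88, the adaptor of Toll-like and interleukin-1 receptors, fell by 0.64 ± 0.16 (0.0266). In each direction that is 2 of 22, where 8.08% of all genes passed as higher and 6.80% as lower. Rela passed in 16 and Relb in 14 of 18 alternatives.

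Of 7 chemokine-processing proteases, Mmp2, which cleaves Ccl7 and Cxcl12, rose by 0.99 ± 0.29 (edgeR adjusted p = 0.0464), and Dpp4, which clips Cxcl9, Cxcl10 and Cxcl12, fell by 0.68 ± 0.20 (0.0479). Each passed in a minority of alternatives, 6 and 7 of 18. In each direction that is 1 of 7, where 8.08% of all genes passed as higher and 6.8% as lower. Adam10 and Adam17, which shed Cxcl16, did not pass. Of the 13 ligand, receptor, signal and protease genes that passed between tumors and WT livers, 2 also passed without WT replicate 2 (Cx3cl1 and Cxcr4), 3 without tumor replicate 2 (these and Rela) and 13 with DESeq2. With the replicate number as a block 5 passed (Cx3cl1, Cxcr4, Myd88, Rela and Relb), and with only the 2 groups in the fit 1 passed (Cx3cl1).

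**Figure D4:**
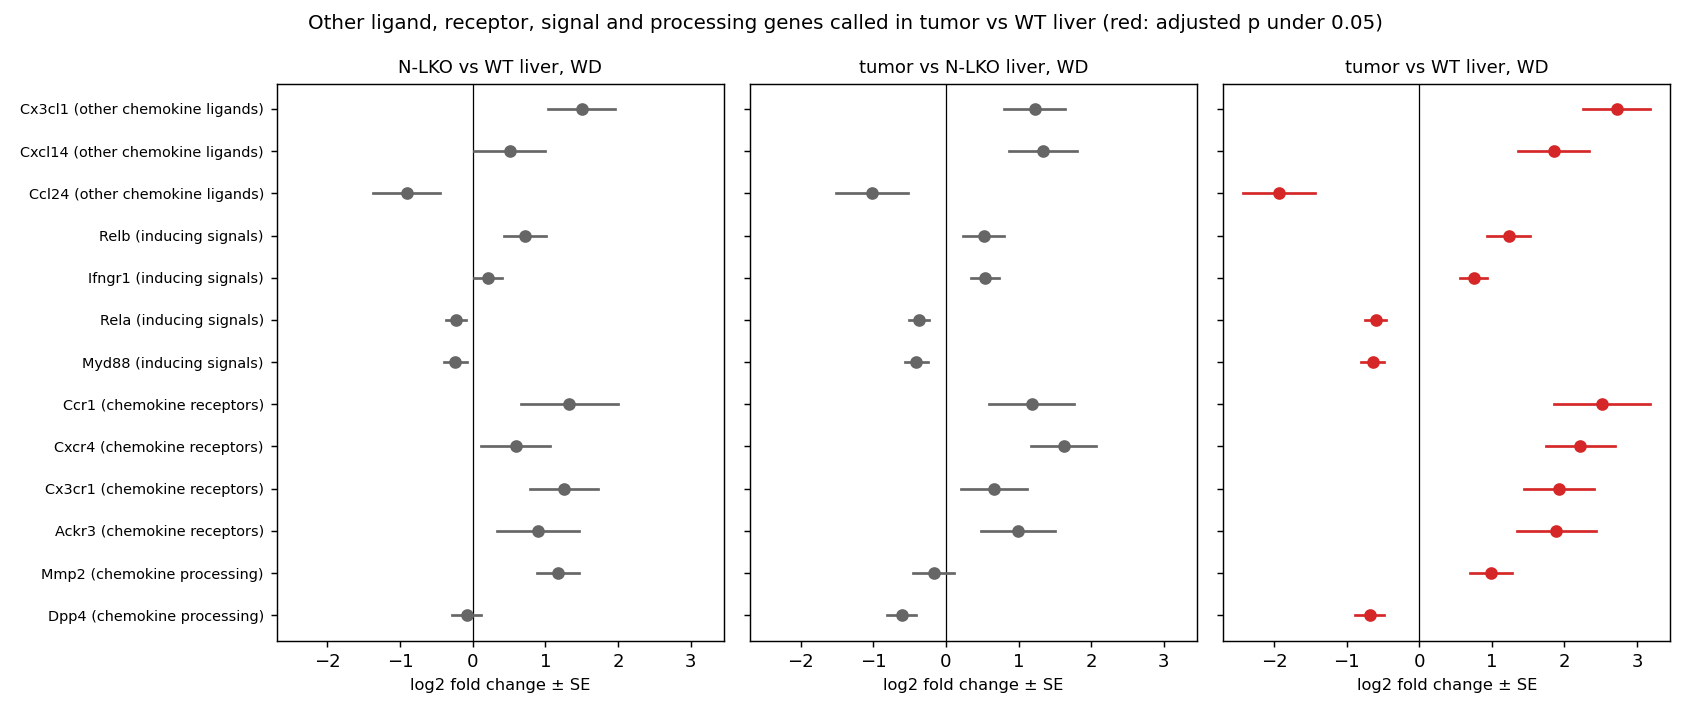
Log2 fold changes (points) and their SE (lines) of the 13 other ligand, receptor, signal and processing genes that passed in tumor versus WT liver are plotted for the 3 WD comparisons; red marks an edgeR adjusted p under 0.05. These genes are red in the right panel by choice, and none is red in N-LKO versus WT liver or in tumor versus N-LKO liver.

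In the other 2 WD comparisons and in the interaction, none of the ligands, receptors, signals or proteases of these lists passed in edgeR. DESeq2 called Mmp2 between N-LKO and WT livers and Ackr4 and Cxcr4 between tumors and N-LKO livers, and no other of these genes. Between N-LKO and WT livers, the lowest p among the other ligands was that of Cx3cl1, at 4.89 ± 0.131 and 1.72 ± 0.511 CPM (n = 3 each, log2 fold change 1.5 ± 0.46, edgeR adjusted p = 0.353). Mmp2 was at 11.6 ± 1.30 and 5.16 ± 2.23 CPM (1.17 ± 0.29, adjusted p = 0.353, and 0.0337 with DESeq2). Between tumors and N-LKO livers, Ackr4, a scavenging receptor for other chemokines, was at 8.58 ± 2.59 and 16.9 ± 2.78 CPM (-0.98 ± 0.26, adjusted p = 0.103, and 0.0145 with DESeq2), and Cxcr4 was at 12.3 ± 6.07 and 3.98 ± 0.851 CPM (1.62 ± 0.45, adjusted p = 0.114, and 0.0126 with DESeq2). In each of these 4 cases the 2 groups did not overlap. Of all genes tested, 27.9% did not overlap between N-LKO and WT livers and 23.1% between tumors and N-LKO livers.

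Markers of other cell types differed between the WD groups, in both directions. In tumors against WT livers, 8.08% of all genes passed as higher and 6.8% as lower. T and NK cell markers summed to 3.80 to 5.55 CPM in WT livers, 6.90 to 7.83 in N-LKO livers and 8.92 to 13.7 in tumors. In tumors against WT livers 2 of 7 tested rose (Cd3g, with 4 to 7 counts per WT library, and Cd4, with 9 to 18). Cd4 alone averaged 0.911, 0.887 and 3.83 CPM in the 3 groups. From N-LKO livers to tumors, mean levels were lower for Nkg7 (0.796 and 0.615 CPM), Gzmb (0.588 and 0.445), Klrb1c (0.695 and 0.643) and Ncr1 (0.536 and 0.524). They were higher for the other T and NK cell markers. Dendritic cell markers summed to 7.60 to 20, 22.3 to 27.1 and 32.8 to 37.6 CPM, and 3 of 5 rose (Cd209a, with 2 to 7 counts per WT library, Itgax and Siglech). Kupffer cell markers went the other way, at 406 to 593, 349 to 413 and 110 to 337 CPM, and 3 of 6 fell (Cd5l, Marco and Timd4). Monocyte and macrophage markers overlapped between the groups, at 233 to 380, 304 to 364 and 279 to 424 CPM, with 1 of 8 rising. Neutrophil markers also overlapped, at 7.63 to 9.40, 7.05 to 11.1 and 6.57 to 10.5 CPM, and 0 of 3 tested passed. Cholangiocyte markers summed to 17.2 to 69.6 CPM in WT livers, 115 to 151 in N-LKO livers and 195 to 523 in tumors. Spp1 alone averaged 43.9, 122 and 323 CPM in these groups. In tumors against WT livers 2 of 5 rose (Sox9 and Spp1), while Krt7 (-0.10) and Krt19 (-0.06) had log2 fold changes near 0. Mean levels were lower in tumors than in N-LKO livers for Krt7 (0.398 and 0.845 CPM), Krt19 (0.479 and 0.756) and Epcam (1.19 and 2.43), with overlapping ranges. They were higher for Spp1 and for Sox9 (39.3 and 10.5 CPM). Between tumors and N-LKO livers 1 of 5 cholangiocyte markers passed in edgeR, Sox9, where 0.499% of all genes did. DESeq2 also called Sox9 and no other marker of this list. Hepatocyte markers were at 44900 to 54700, 32000 to 39800 and 34400 to 60200 CPM, with 2 of 6 falling in tumors against WT livers. Endothelial cell markers overlapped between the groups, at 216 to 254, 200 to 260 and 242 to 272 CPM. In tumors against WT livers, 2 of these 6 rose (Cdh5 and Pecam1) and 1 fell (Clec4g). Stellate cell and fibroblast markers were at 428 to 847, 789 to 965 and 515 to 919 CPM, and 1 of 7 fell in tumors against WT livers (Reln). No listed marker was at 0 in every library of a group, and the part of these cells in the higher values of Cxcl9 and Ccl9 in tumors was not tested. Between N-LKO and WT livers none of these markers passed in edgeR or with DESeq2.

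**Figure D5:**
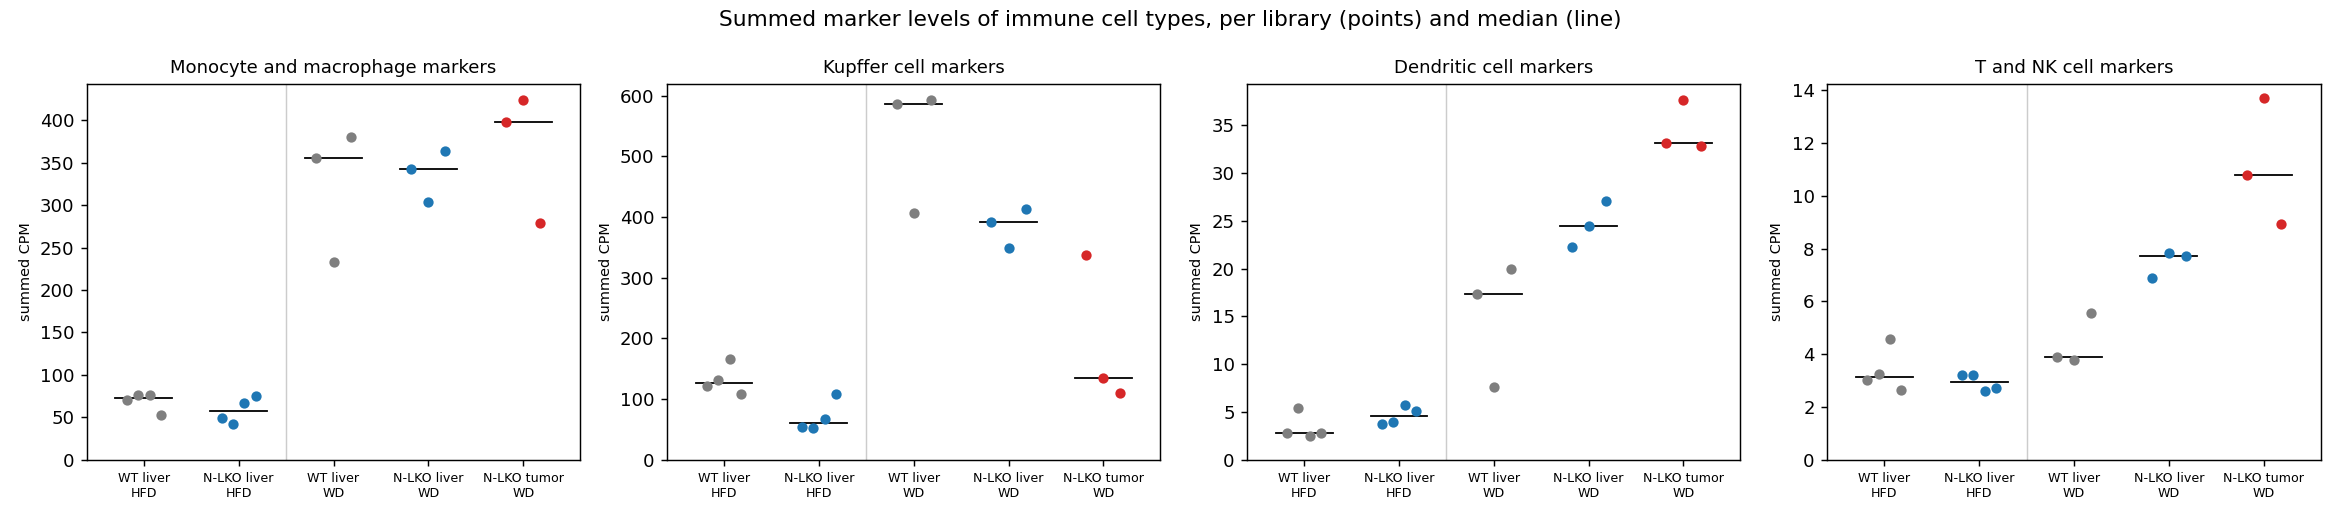
The summed CPM of 4 marker lists (linear axes from 0) is plotted for each library by group, with a line at the group median. Under WD the dendritic cell and the T and NK cell sums rise from WT liver to N-LKO liver to tumor without overlap, and the Kupffer cell sum of every tumor lies below every WT and N-LKO liver.

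The genes whose profile was most like that of Ccl9 over all 17 libraries, each centered on the WT mean of its diet, were Il1rn, the interleukin-1 receptor antagonist, with a root mean square difference of 0.24 on the log2 scale, and Clec1a, a C-type lectin receptor, with 0.27. The median over 13018 genes was 0.65. Il1rn was at 17.7, 20.1 and 32.3 CPM on average in WT livers, N-LKO livers and tumors under WD. The nearest to Cxcl9 were Aqp8, a water channel, and Mtmr11 (0.34 each), and Zfp704 (0.35), where the median was 0.99. Diet and count table cannot be told apart, so levels under HFD and WD were not compared.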

How the data were processed

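RNA-seq libraries of 17 mouse liver and tumor samples were used. The authors deposited estimated counts per gene, made with Partek by expectation maximization, which divides reads between features; whole numbers made up 69.8% (HFD) and 66.6% (WD) of values, within 1e-06. The submitters' processing notes name STAR and mm9, the paper TopHat2, and the deposited coordinates match GRCm38. Versions and strand use are not given in the sources used here. Members and gene lists were chosen with earlier results of these data known. After rounding, the quasi-likelihood test of edgeR 4.0.16 (R 4.3.3, TMM, filterByExpr, Benjamini-Hochberg) was used. HFD livers were fitted alone and the 3 WD groups together. CPM used TMM-scaled library sizes. The SE was taken as the fold change divided by the square root of F. Alternatives used DESeq2 1.42.0, limma 3.58.1 and other settings given below. The scripts were tested on simulated data. Named pathway genes passed in at least 1 comparison or, in lists with none, had 1 of the 2 lowest p. For each chemokine that passed, the 3 genes nearest in profile were sought (log2 of CPM + 1), and 1 of them is not reported here. Biological replicates are as labelled, and all samples were fitted as unpaired. Same-numbered samples did not deviate together (correlations of -0.124 to 0.107). Replicate numbers need not follow the animals, and samples with different numbers were not correlated. The check therefore cannot tell whether some tumors and N-LKO livers came from the same mice. The replicate block rests on the same numbers. No pair among 21 within groups was a repeated library (lowest chi-square per degree of freedom 7.99). Intervals and floors of 3 counts cover 95% confidence or counting error only.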

Additional observations from a re-analysis of the deposited data

Results flagged for a closer look

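In groups of 4 livers, a library was set apart where its gap to the nearest other exceeded Dixon's 95% critical share of the group's range. Of 46 groups tested over the chemokines and the named pathway genes, 5 held such a library, and chance gives about 1 in 20. Cxcl1 was at 4.67 CPM in WT liver replicate 3 under HFD, below the 9.18 to 9.69 CPM of the other 3. Among N-LKO livers under HFD, replicate 3 was high for Cx3cr1 (4.90 CPM, others 2.73 to 2.88) and for Relb (2.28 CPM, others 1.28 to 1.33). Replicate 2 was high for Ifngr1 (16.2 CPM, others at most 13.2) and low for Dpp4 (88.3 CPM, others up to 106). The WD groups held 3 samples each and were not tested in this way.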

How the results depend on the processing

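Of 847 recomputed log2 fold changes of the chemokines, 763 kept their direction and their side of the threshold, 58 changed sign, 20 lost the call and 6 gained it. In every case that changed sign, neither value passed the test. Between tumors and WT livers, 1 chemokine passed instead of 2 with DESeq2 size factors, with no filter and with the replicate block (Cxcl9 each time), 0 passed with only the 2 groups compared in the fit, and 0 to 2 passed when each replicate was left out. In N-LKO against WT livers under HFD and in tumors against N-LKO livers, 1 passed with the DESeq2 test (Ccl9), and 0 to 1 when each replicate was left out. The causes were not tested.

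With the replicate number as a block, 494 genes passed under HFD (652 without), 36 between tumors and N-LKO livers (89), 1860 between tumors and WT livers (2653) and 0 in the interaction (257), and Cxcl10 under HFD (-0.01) and Ccl4 in WD livers (0.16) changed sign. Over all genes, DESeq2 called 1000 under HFD, 100 between the WD livers (0 in edgeR), 1021 between tumors and N-LKO livers and 981 in the interaction. The offset for length and GC content left 319 under HFD and 48 in the interaction. With only the 2 groups in the fit, 705 genes passed between tumors and WT livers, 29 between tumors and N-LKO livers (18 with limma-voom, 58 at a mean of 1 CPM) and 6 between the WD livers. When each replicate was left out, 179 to 597 genes passed under HFD, 3 to 2193 between tumors and N-LKO livers (2193 without tumor replicate 1) and 569 to 3819 between tumors and WT livers (569 without WT replicate 2), and 22 to 330 in the interaction.

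Signs also changed with the length and GC offset for Cxcl10 under HFD (-0.06), Ccl4 in WD livers (0.06), Cxcl1 between tumors and WT livers (0.00) and Cxcl12 in the interaction (-0.07). They did so with limma-voom for Cxcl10 under HFD (-0.04) and for Ccl4 (0.99) and Ccl9 (0.03) in WD livers, and with upper-quartile scaling for the last 2 (0.03 and 0.02). Cxcl1 between tumors and WT livers was 0.00 with DESeq2 and -0.02 with no filter, and Cxcl12 in the interaction was 0.00 with no filter.

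Over all alternatives, with those that left out a replicate, values between N-LKO and WT livers ran from -0.15 to 0.23 for Cxcl10 under HFD. Under WD they ran from -0.58 to 1.21 for Ccl4, 0.00 to 0.42 for Ccl6, -0.27 to 0.27 for Ccl9, -0.55 to 0.24 for Cxcl1, -0.13 to 0.63 for Cxcl10 and -0.30 to 0.09 for Cxcl12. Between tumors and N-LKO livers they ran from -0.52 to 0.11 for Ccl2, -0.12 to 0.22 for Ccl4, -0.31 to 0.35 for Ccl5, -0.07 to 0.56 for Cxcl1 and -0.12 to 0.25 for Cxcl10. Between tumors and WT livers they ran from -0.49 to 1.29 for Ccl4, -0.18 to 0.47 for Cxcl1 and -0.08 to 0.67 for Cxcl10. In the interaction they ran from -0.47 to 0.90 for Ccl2, -0.14 to 0.65 for Cxcl10, -0.16 to 0.20 for Cxcl12 and 0.00 to 0.65 for Cxcl16. Low counts limit Ccl2, Ccl4 and Ccl5 most, with 0 to 85 per library.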
